A study of Mus musculus with 2 samples.

Results

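The genes described here are 10 genes of the ventral telencephalon, the part of the embryonic forebrain that forms the basal ganglia and most inhibitory neurons. They comprise the homeobox genes Gsx1, Gsx2, Dlx1, Dlx2, Dlx5, Dlx6 and Nkx2-1, the basic helix-loop-helix gene Olig2, the zinc finger gene Sp9 and the antisense RNA gene Dlx6os1. They were chosen by name, as the rows of the gene tables whose Ensembl identifiers carry these symbols, with earlier results of these data known. The 10 symbols matched 11 of the 43346 annotated gene rows, because Dlx6os1 stands on 2 rows. The long row of Dlx6os1 represents the gene below, and its short row is given separately.

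Forebrains of mouse embryos at 10.5 days of development gave total RNA for 2 libraries of a single group, each from 10 ng of RNA longer than 200 nucleotides with spike-in RNA added. Replicate 1 was a pool of forebrains from 69 embryos and replicate 2 a separate pool from 51 embryos, both of strain B6NCrl, with males and females mixed and no genetic change or treatment named. The tables held 41537304 expected counts in annotated genes in replicate 1 and 38012457 in replicate 2. A single group of 2 libraries allows no test between groups, so values are given per library, as mean ± SD (n = 2) or with 95% intervals that cover counting error only. Each library is a mixture of all forebrain cells, in which fewer cells of a type and less RNA per cell cannot be told apart. The tissue label was checked against Six3, Lhx2, Pax6 and Emx2, which are transcription factors of the early forebrain, and these genes lay between 11.1 and 98.3 TPM in both libraries. TPM is the scaled share of all transcripts after division by length, so that levels of different genes can be set side by side.

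Ventral identity in the telencephalon is set up by Sonic hedgehog signalling and is carried by a cascade of transcription factors. Gsx1 and Gsx2 act in dividing progenitors of the ganglionic eminences, Nkx2-1 marks the medial eminence, and Olig2 is found in many ventral progenitors. Dlx1 and Dlx2 come on as progenitors begin to commit to the inhibitory lineage, and Dlx5 and Dlx6 follow in cells that are leaving the cycle. Dlx genes lie in neighbouring pairs that are transcribed towards each other and share enhancers in between, and Dlx6os1 is a long noncoding RNA transcribed through the enhancer region of the Dlx5 and Dlx6 pair.

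At this age 8 of the 10 genes were at 1 TPM or more in both libraries, a limit that 32.4% of all annotated genes passed. The exceptions were Dlx6 and Sp9, both under 1 TPM in each library. Summed over the 10 genes the level was 94.6 TPM in replicate 1 and 100.5 TPM in replicate 2. The mean TPM of Dlx1, the highest gene, was 31.7 times that of Sp9, which was level with Dlx6 within the spread. By mean TPM the order was Dlx1, Dlx5, Dlx2, Nkx2-1, Olig2, Gsx2, Dlx6os1, Gsx1, Dlx6 and Sp9. Of the 9 neighbouring pairs in that order, 6 differed within each library by more than the SD of the difference. The pairs that did not were Dlx5 and Dlx2 (0.11 ± 0.19 on the log2 scale), Gsx2 and Dlx6os1 (0.19 ± 0.32) and Dlx6 and Sp9 (0.01 ± 0.35).

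**Figure D1:**
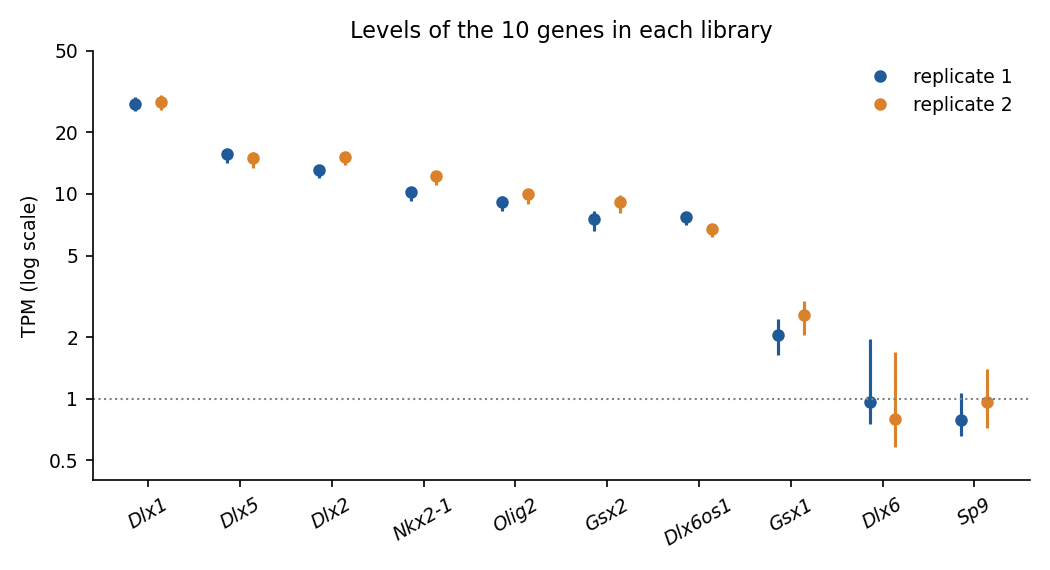
TPM of each gene on a log axis in replicate 1 (blue) and replicate 2 (orange), with the deposited interval of each TPM as a line and a dotted line at 1 TPM. Dlx1 is the highest gene at 27.5 and 28.1 TPM, and Dlx6 and Sp9 are the only genes below the dotted line in both libraries.

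Both Gsx genes, homeobox factors of progenitors in the lateral and medial eminences, were detected, with Gsx2 well above Gsx1. Gsx2 stood at 7.51 TPM in replicate 1 and 9.10 TPM in replicate 2, from expected counts of 323 and 352. Gsx1 stood at 2.05 and 2.56 TPM, from 95 and 107 counts, so the values of the 2 genes did not overlap. Within each library Gsx2 exceeded Gsx1 by 1.81 ± 0.02 on the log2 scale. Both genes lie on chromosome 5 but are not neighbours, with 72110802 bases between them. Gsx2 spans chr5:75075601-75077893 and Gsx1 spans chr5:147188696-147190947 on GRCm38, both on the plus strand.

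The RefSeq promoter windows of these 2 progenitor genes are shown because the pair shares a function and differs in level. Each holds the 250 bases before the annotated start, read 5′ to 3′ from GRCm38.p6, and capitals mark matches to 3 short motifs searched on both strands. The motifs were TAATTA, a core bound by many homeodomain proteins, TATAAA, the TATA box, and CCAAT, the CCAAT box.
Gsx2, chr5:75075351-75075600, plus strand: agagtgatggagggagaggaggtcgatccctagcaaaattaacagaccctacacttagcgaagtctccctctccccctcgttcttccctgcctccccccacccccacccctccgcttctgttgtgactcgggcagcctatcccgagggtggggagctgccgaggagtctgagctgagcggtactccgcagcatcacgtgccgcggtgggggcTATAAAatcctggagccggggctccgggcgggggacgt
Gsx1, chr5:147188446-147188695, plus strand: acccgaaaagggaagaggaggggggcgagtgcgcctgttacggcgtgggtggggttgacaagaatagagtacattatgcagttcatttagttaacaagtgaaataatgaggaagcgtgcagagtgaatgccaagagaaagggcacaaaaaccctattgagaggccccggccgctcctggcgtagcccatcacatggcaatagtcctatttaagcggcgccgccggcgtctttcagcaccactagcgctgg
The Gsx2 window held 1 TATAAA match, a motif present in 12.4% of the 32851 RefSeq windows of this length, and had a GC content of 63.6%. The Gsx1 window held no match to any of the 3 motifs and had a GC content of 54%, against a median of 52.4% over all windows. These matches describe the letters only.

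Dlx1 and Dlx2 encode homeobox factors that are required together for the migration of inhibitory neurons. Dlx1 was the highest of the 10 genes, at 27.45 TPM in replicate 1 and 28.05 TPM in replicate 2, from expected counts of 1631 and 1486. Dlx2 stood at 13.1 and 15.2 TPM, from 821 and 854 counts. Within each library Dlx1 lay above Dlx2, by 0.97 ± 0.13 on the log2 scale. The level of Dlx1 was at percentile 87.7 of all annotated genes and that of Dlx2 at percentile 82.4. Among genes at 1 TPM or more in both libraries the percentiles were 62.0 and 45.7. The 2 genes lie tail to tail on chromosome 2 with 9426 bases between them, Dlx1 at chr2:71528113-71533981 on the plus strand and Dlx2 at chr2:71543408-71546754 on the minus strand.

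In the deposited shares, most of the Dlx1 level was assigned to transcript models that keep an intron and are not annotated as coding. The models ENSMUST00000145088 and ENSMUST00000172629, both classed as retained intron in GENCODE M21, took 88.5% of the gene's TPM in replicate 1 and 89.3% in replicate 2. Protein-coding models of Dlx1 together reached 3.16 and 2.99 TPM, led by ENSMUST00000037119 with 7.59% and 7.20% of the gene. Of the 3385 exon bases of ENSMUST00000145088, 2277 are also exon bases of that coding model and 1108 are not. In ENSMUST00000172629, 177 of 803 exon bases lie outside the coding model. The coding model ENSMUST00000037119 begins at -1332 bases from the RefSeq start of Dlx1, upstream of it. ENSMUST00000145088 and ENSMUST00000172629 begin 502 and 1335 bases downstream of that start, so none of these models begins at it. Dlx2 was divided the other way, with 93.9% and 93.3% of its TPM on the coding model ENSMUST00000024159 and 6.12% and 6.70% on a retained-intron model. Counting only protein-coding models, Dlx1 lay below Dlx2 by a log2 ratio of -2.07, an alternative added after the data were seen. That ratio rests on how reads in shared exons were divided between the models, which was not tested. An antisense gene, Dlx1as, shares 335 exon bases with Dlx1 and stood at 10.2 and 7.08 TPM from 155 and 97.7 counts. The deposited posterior SD of the count, a measure of how uncertain the placing of reads was, came to 7.63 and 7.11 counts for Dlx1 and to the same values for Dlx1as. It was 0 in both libraries for 7 of the 10 genes.

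**Figure D2:**
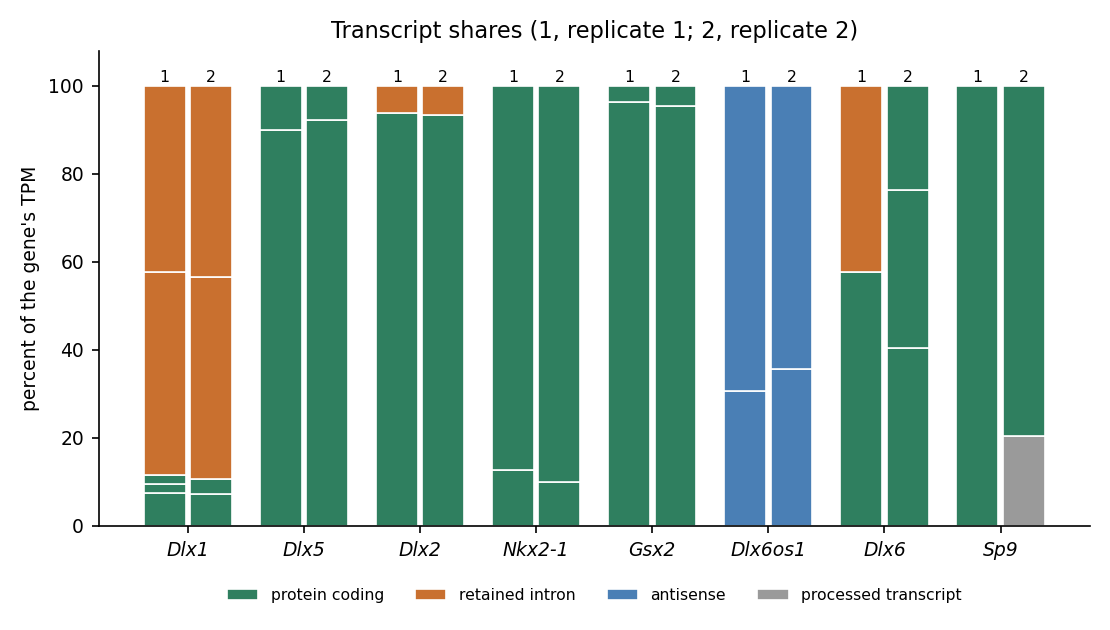
Percent of each gene's TPM on each of its transcript models, for the 8 genes with more than 1 model, in replicate 1 and replicate 2, coloured by GENCODE transcript type with white lines between models. Retained-intron models make up 88.5% and 89.3% of Dlx1 but 6.12% and 6.70% of Dlx2, and Dlx6 is the only gene whose leading model differs between the libraries.

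The later Dlx genes were far apart from each other. Dlx5, a homeobox gene of differentiating inhibitory neurons that is also active in craniofacial tissue, stood at 15.6 TPM in replicate 1 and 14.9 TPM in replicate 2, from 567 and 490 counts. Dlx6, its partner with overlapping functions, stood at 0.97 and 0.80 TPM, from 36 and 24 counts. Dlx5 lay above Dlx6 by 3.97 ± 0.13 on the log2 scale in the same libraries, and the values of the 2 genes did not come near each other. The exact Poisson interval of the Dlx6 count ran from 25.2 to 49.8 in replicate 1 and from 15.4 to 35.7 in replicate 2. The deposited posterior mean TPM of Dlx6 was higher, at 1.32 and 1.10, so its place below 1 TPM depends on the estimate used. Its transcript shares were unsteady at this depth. ENSMUST00000160937 led with 57.8% in replicate 1, while ENSMUST00000031768 led with 40.4% in replicate 2 after 0 in replicate 1.

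Dlx6os1 was well above Dlx6, the gene that its model ENSMUST00000159568 runs through on the opposite strand. The long row stood at 7.71 TPM in replicate 1 and 6.78 TPM in replicate 2, from 914 and 723 counts, and exceeded Dlx6 by 2.90 ± 0.05 on the log2 scale. Dlx5 in turn lay above Dlx6os1 by 1.07 ± 0.08. That order rests on division by length, since Dlx6os1 is about 4385 bases long in replicate 1 against 1413 for Dlx5, and in counts scaled to the library total (CPM) the log2 ratio of Dlx5 to Dlx6os1 was -0.62. The short row of Dlx6os1, a model of 146 bases, listed 6.15 and 5.12 TPM from only 8 and 6 counts, a level set by its effective length of 47 bases.

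On chromosome 6, Dlx6 spans chr6:6863334-6868568 on the plus strand and Dlx5 spans chr6:6877805-6882085 on the minus strand, with 9236 bases between them. The span of Dlx6os1, chr6:6820189-6871592 on the minus strand, covers the whole of Dlx6 but shares 0 exon bases with Dlx6 or Dlx5. No source used here says whether counting used strand, so intronic or unspliced reads of the 2 strands may not be separated. A second antisense gene, Dlx6os2, shares 104 exon bases with Dlx6 and drew 11 and 5 counts. Of the TPM of Dlx6os1, 69.3% in replicate 1 and 64.3% in replicate 2 fell on ENSMUST00000159827. That model spans chr6:6820189-6861591 and does not cross Dlx6. The rest, 2.37 and 2.42 TPM, fell on ENSMUST00000159568, which begins closer to Dlx5 and crosses Dlx6.

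**Figure D3:**
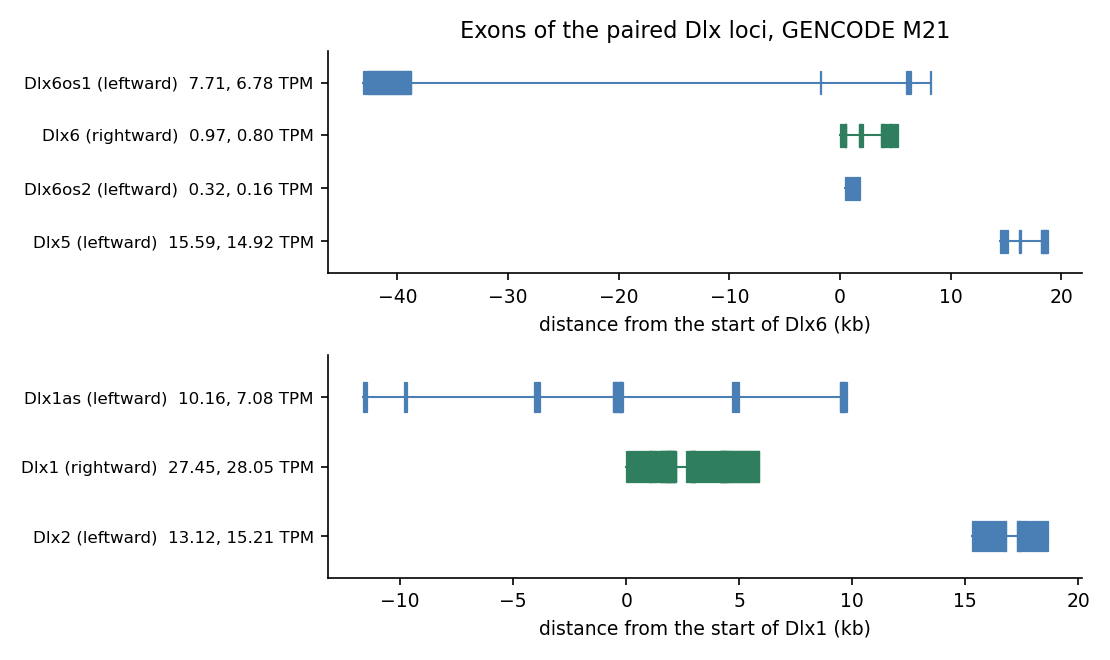
Exons (boxes) and introns (lines) of the genes around Dlx6 and Dlx5 (top) and around Dlx1 and Dlx2 (bottom), as distance in kb from the start of Dlx6 or Dlx1, with genes transcribed to the right in green and to the left in blue and the TPM of replicates 1 and 2 beside each name. The span of Dlx6os1 passes through Dlx6 without sharing an exon base, whereas exons of Dlx1as and Dlx1 overlap.

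RefSeq gives 2 starts for Dlx6os1, and the windows before them are shown because they differ in base composition from most promoter windows and hold the homeodomain core. They read 5′ to 3′ on the minus strand of GRCm38.p6, with capitals marking the same 3 motifs.
Dlx6os1 first start, chr6:6869534-6869783, minus strand: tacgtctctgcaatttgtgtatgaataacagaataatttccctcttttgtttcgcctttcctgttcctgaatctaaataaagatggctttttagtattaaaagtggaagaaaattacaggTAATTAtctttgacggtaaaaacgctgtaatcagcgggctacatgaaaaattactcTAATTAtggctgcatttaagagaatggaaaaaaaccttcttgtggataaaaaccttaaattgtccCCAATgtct
Dlx6os1 second start, chr6:6861684-6861933, minus strand: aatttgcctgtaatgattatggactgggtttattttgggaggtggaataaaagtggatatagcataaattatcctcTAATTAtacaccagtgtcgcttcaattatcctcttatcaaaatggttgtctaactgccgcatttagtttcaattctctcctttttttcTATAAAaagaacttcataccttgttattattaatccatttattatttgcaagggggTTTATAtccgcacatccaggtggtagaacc
The first window held 2 TAATTA matches and 1 CCAAT match, and the second 1 TAATTA and 2 TATAAA matches. TAATTA, which reads the same on both strands and was counted once per position, occurs in 4.84% of the 32851 windows, and 0.444% hold 2 copies or more. CCAAT occurs in 33.8% of windows. GC content was 33.2% and 34% in the 2 windows, and only 3.17% and 3.87% of all windows had a lower value. The motif shares are over windows of any base composition, with a median GC content of 52.4%. No share was taken among windows of similar GC content, so how unusual the TAATTA matches are at this composition was not tested. The first window lies inside an exon of the noncoding model ENSMUST00000159568, which begins upstream of it. The more abundant transcript, ENSMUST00000159827, begins 92 bases downstream of the second start. RefSeq windows were found for 8 of the 10 genes, 9 windows in all, and TAATTA occurred in no other of these windows. Dlx5 and Dlx6 are named only.

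Nkx2-1 and Olig2 mark progenitors of the ventral domains, and both were moderately expressed. Nkx2-1, the determinant of the medial ganglionic eminence, which is also active in hypothalamus, thyroid and lung, stood at 10.2 TPM in replicate 1 and 12.2 TPM in replicate 2, from 626 and 669 counts. It exceeded Gsx2 by 0.43 ± 0.01 on the log2 scale. The shorter coding model ENSMUST00000178477 held 87.3% and 90.04% of its TPM, and begins 1802 bases downstream of the start shared by RefSeq and the longer model. Nkx2-1 spans chr12:56531958-56536908 on the minus strand.

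Olig2, which also specifies motor neurons and oligodendrocytes, stood at 9.18 and 9.96 TPM, from 594 and 581 counts. It lies at chr16:91225457-91228677 on the plus strand, and its neighbour Olig1 was at 7.20 and 7.09 TPM. Sp9, a factor of striatal and interneuron precursors acting with its relative Sp8, stood at 0.79 and 0.96 TPM, from 97 and 86.5 counts. Per length it could not be ranked against Dlx6, which was higher in replicate 1 and lower in replicate 2, while its counts exceeded those of Dlx6 in both. Sp8 itself was at 17.1 and 14.4 TPM. Sp9 spans chr2:73271925-73284706 on the plus strand, 1725170 bases beyond Dlx2.

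The genes active first in the cascade were then set against the later ones. The summed level of Dlx1 and Dlx2 exceeded that of Dlx5 and Dlx6 by a log2 ratio of 1.29 in replicate 1 and 1.45 in replicate 2 (1.37 ± 0.12). The median of Gsx1, Gsx2, Dlx1 and Dlx2 exceeded that of Dlx5 and Dlx6 by 1.49 ± 0.28. Both differences had the same sign in the 2 libraries, but both depended on which genes and transcript models entered. With protein-coding models only, the first ratio was 0.03, with opposite signs in the libraries (-0.06 and 0.13), and the second was 0.58. Without Dlx1 and Dlx2 the second difference was 0.20, again with opposite signs (-0.02 and 0.43), and without the Gsx genes it was 2.36. Taken singly, Dlx5 lay below Dlx1 in each library, by 0.86 ± 0.07 on the log2 scale. It did not differ from Dlx2 beyond the spread and was above Gsx1 and Gsx2 in each library. Within the later pair the low values were those of Dlx6.

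**Figure D4:**
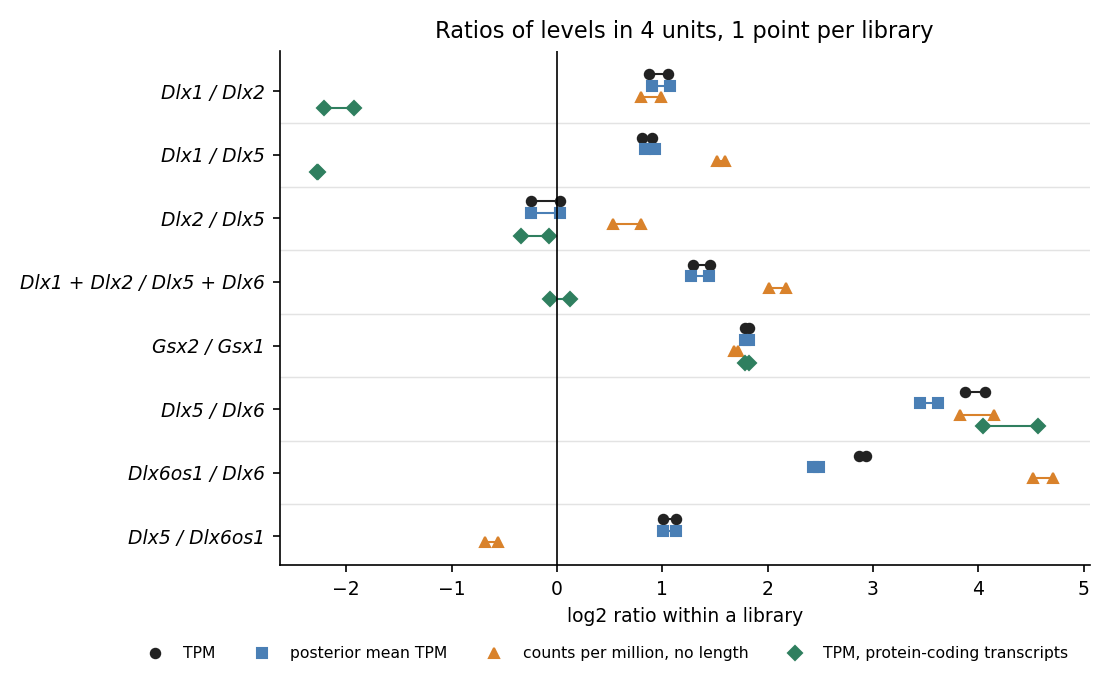
Log2 ratios between pairs of genes or sums of genes within each library, in TPM (black), posterior mean TPM (blue), CPM, without division by length (orange) and TPM of protein-coding models (green), with 1 point per library joined by a line. Dlx1 lies above Dlx2 and Dlx5 in 3 units and below both over protein-coding models, and the ratio of summed early to summed late Dlx levels goes from 1.37 in TPM to 0.03 over those models.

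Between the 2 pools, 0 of the 10 genes differed over 2-fold. Of the 9 genes whose counts averaged at least 50, 0 differed over 2-fold, against 0.585% of all 13842 genes at that depth. Over 1.5-fold, 0 of the 9 differed, against 2.93%. With shares this low most sets of 9 genes would give 0, so these counts show nothing particular to the group. Dlx6 did not reach that depth. With libraries scaled by TMM, a normalization to the bulk of genes, 6 genes were higher in replicate 2 and 4 lower. The median log2 ratio was 0.05, against 0.002 over all genes. The 95% interval of the count ratio, which covers counting error only, left out 1 for 4 genes. The share of all genes with such an interval was not counted, so 4 cannot be called many or few. Gsx2 was 1.1975-fold higher in replicate 2 (interval 1.03 to 1.40), Nkx2-1 was 1.17-fold higher (1.05 to 1.31) and Dlx2 was 1.14-fold higher (1.04 to 1.26). Dlx6os1 was lower in replicate 2, at a ratio of 0.869 (0.787 to 0.959). Among 3878 genes with mean counts of 200 to 1000 the median difference was 1.09-fold either way and the 90th percentile 1.27-fold, above all 4 of these differences. The spread narrows with counts, and among 2531 genes with mean counts of 1000 to 2000 the 90th percentile was 1.14-fold. Dlx2, Dlx6os1 and Nkx2-1 lie in the upper part of the first range, so the spread at their own depth may be narrower than 1.27-fold. Dlx1 was the most even gene, at a ratio of 1.00 (0.933 to 1.07). Dlx6 had the widest interval, a ratio of 0.738 (0.418 to 1.26).

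**Figure D5:**
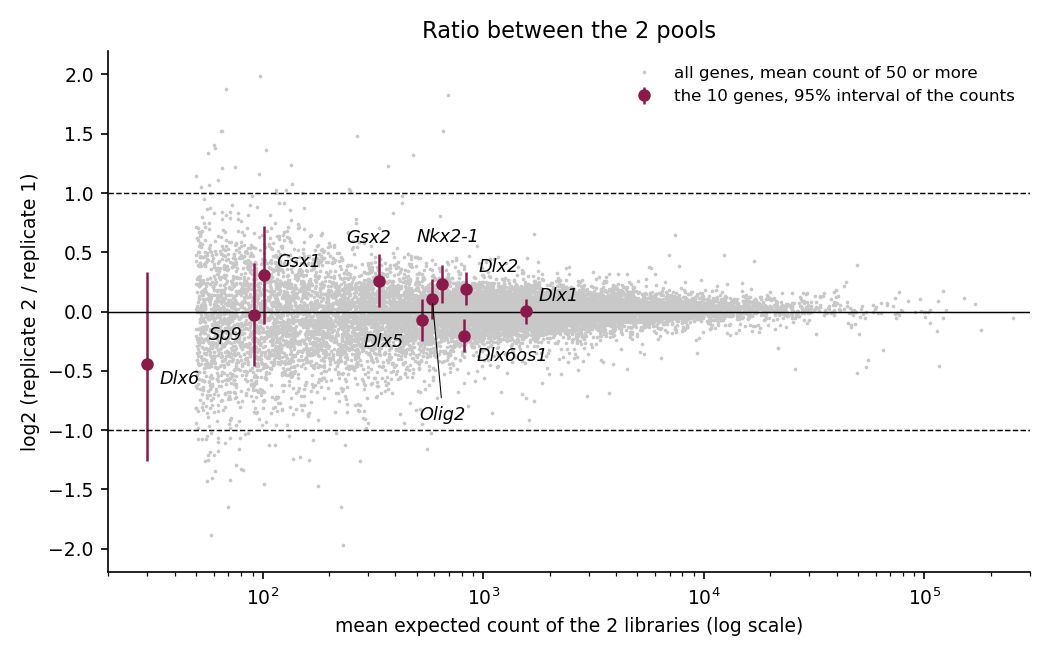
Log2 ratio of replicate 2 to replicate 1 against the mean expected count on a log axis, for the 10 genes (red, with the 95% interval of the counts) and every gene whose counts averaged at least 50 (grey), with dashed lines at 2-fold. All 10 points lie between the dashed lines, the interval of Dlx6 crosses the lower line, and 8 of the 13842 grey points fall beyond the vertical axis.

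Genes of the signal that induces ventral fate were present throughout. All 12 genes in a list of hedgehog pathway and ventral patterning genes were at 1 TPM or more in both libraries. Over all annotated genes 32.4% passed that limit. The summed level of the list was 250 and 258 TPM. Shh, the ligand, named here outside the naming rule with its values known, was low at 2.04 and 2.37 TPM. Among its receptors and transducers Gas1, a co-receptor, stood at 61.6 and 62.0 TPM, Smo, the signal transducer, at 40.6 and 42.5 TPM, and Boc, another co-receptor, at 22.1 and 22.3 TPM. Gli3, the main repressor of the pathway, stood at 50.8 and 52.9 TPM. In this list 0 genes differed over 2-fold between the pools, and the median log2 ratio was 0.05.

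Genes that act with or after the Dlx factors were partly present. Of 22 genes of later subpallial and inhibitory neuron identity 18 were at 1 TPM or more in both libraries, against 32.4% of all annotated genes. Among the highest were Meis2, a striatal and progenitor factor, at 27.5 and 27.9 TPM, the chemokine receptor gene Ackr3 at 16.4 and 18.4 TPM and the chromatin factor gene Satb1 at 16.6 and 15.3 TPM. Under 1 TPM in both libraries were Slc32a1, the vesicular GABA transporter, at 0.40 and 0.12 TPM, the neuropeptide gene Npy at 0.23 and 0.09 TPM and the homeobox gene Gbx1 at 0.07 and 0.18 TPM. Gad1 and Gad2, the enzymes of GABA synthesis, named after their values were seen, were at 1.92 and 2.86 TPM and at 5.82 and 4.01 TPM. The median log2 ratio between pools was 0.02, with 9 genes higher and 9 lower in replicate 2. In this list 1 of 18 genes differed over 2-fold, Nkx6-2, at 1.72 and 4.66 TPM. Lhx8, a gene activated by Nkx2-1 in the medial eminence and named after its values were seen, was at 2.18 and 4.11 TPM.

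Of 10 pallial genes, which mark the dorsal telencephalon, 8 had a lower value in replicate 2, with a median log2 ratio of -0.33, and 0 differed over 2-fold. Emx1 stood at 30.3 TPM in replicate 1 and 22.6 TPM in replicate 2, while Lhx2 stood at 91.7 and 98.3 TPM, Pax6 at 64.9 and 67.9 TPM and Emx2 at 40.8 and 37.7 TPM. The hypothalamus also uses Nkx2-1, and in a list of 10 hypothalamic genes 4 of the 8 with enough counts differed over 2-fold. Rax, a hypothalamic and retinal progenitor gene, stood at 3.47 and 9.79 TPM and Six6 at 2.71 and 6.85 TPM, both higher in replicate 2. Sim1 and Otp, the latter named after its values were seen, were lower there, at 0.99 and 0.42 TPM and at 1.36 and 0.47 TPM. The summed level of the hypothalamic list was 28.6 and 39.1 TPM. Whether these shifts have a part in the small differences of Gsx2, Dlx2, Nkx2-1 and Dlx6os1 was not tested.

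Other tissues of the head that use Dlx5 or Dlx6 left signal in the libraries. Of 12 genes of neural crest and branchial arch mesenchyme 8 were at 1 TPM or more in both libraries, against 32.4% of all annotated genes. Their list summed to 227 and 238 TPM. Among the highest were Alx1 at 55.2 and 63.1 TPM, Col1a1 at 55.3 and 53.2 TPM and Prrx1 at 30.4 and 27.5 TPM. Hand2, which defines the ventral branchial arch, had 0 counts in both, and Hoxa2, which defines the second arch, had 1 count in each. All 11 genes of surface ectoderm and olfactory placode were detected, with sums of 162 and 158 TPM, led by Krt8, Krt18, Cldn6 and Epcam at 22.7 to 32.8 TPM. Dlx3, the Dlx gene of skin and placode in that list, named after its values were seen, was at 2.97 and 3.08 TPM, and Dlx4 was at 0.22 and 0.18 TPM. The part of the Dlx5 and Dlx6 levels that came from mesenchyme or ectoderm was not tested.

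Markers of the other tissues that express Nkx2-1 or Olig2 were mostly under 1 TPM. Of 8 foregut and thyroid genes 2 were at 1 TPM or more in both libraries, against 32.4% of all annotated genes. This count is near that share and shows nothing particular to the list. The 2 were Sox17 at 5.47 and 6.64 TPM and Hhex at 3.47 and 5.27 TPM, which endothelial cells also express. The sums of that list were 10.7 and 12.7 TPM. Sftpc, a lung gene, had 0 counts, and Foxe1, a thyroid gene, was at 0.01 and 0.04 TPM. Of 8 oligodendrocyte and motor neuron genes 2 were detected, again near the share of all genes. The higher was Pdgfra, a gene also of mesenchyme, at 15.5 and 18.3 TPM, with list sums of 20.96 and 23.7 TPM. Mnx1, the motor neuron marker, had 0 counts in both, Sox10 was at 0.80 and 0.86 TPM and Chat at 0.01 and 0 TPM.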

How the data were processed

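Total RNA was measured in 2 libraries, replicate 1 and replicate 2 of the only group. The authors deposited a gene and a transcript table per library, quantified from transcriptome alignments on mm10 with annotation M4, per the notes deposited with each sample; for the aligner, quantification tool, strand setting and priming, nothing is given in the sources used here. The deposited expected counts are estimated reads per row and need not be whole, per the file headers. TPM was deposited as a length-adjusted share of all rows, with spike-ins in the total, and the tables also hold posterior mean TPM and intervals of TPM. Each transcript's share of its gene was deposited as a percent of TPM.

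The members and lists were chosen with earlier results of these data known. Named were all 10 genes, up to 4 list genes of highest mean TPM and up to 4 under 1 TPM in both libraries per list, and neighbours at a member's locus; any other was chosen after its values were seen. A few list genes are not reported here. Coordinates and transcript types came from GENCODE M21 on GRCm38 and promoter windows from RefSeq; 24 of 24 transcripts matched by identifier and 21 had the same length. Ratios within a library used log2(TPM + 0.1). Ratios between libraries used expected counts + 0.5 over library sizes scaled by TMM in edgeR 4.0.16 (R 4.3.3), from counts rounded to whole numbers, with exact 95% binomial intervals; DESeq2 1.42.0 size factors and library totals were alternatives. The labels give the libraries as separate pools, and a check for duplicate libraries found none (chi-square per degree of freedom 7.25 over 16637 genes with at least 10 counts per library). The ratio step was tested on simulated data. Other steps ran in Python 3.11.15 (pandas 2.3.3, numpy 2.4.6, scipy 1.17.1), with figures from matplotlib 3.10.9.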

Additional observations from a re-analysis of the deposited data

How the results depend on the processing

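Leaving out a replicate, which with 2 libraries always lands within 1 SD of the mean, was not tallied. For the main comparisons 15 alternative values stayed within the spread (counts of genes within 1.5 times) and 9 moved. For single genes and pairs 35 stayed, 14 moved and 4 changed sign. Some values that stayed could not have moved. Leaving out shared exons changed nothing for Dlx6os1 over Dlx6, which share 0 exon bases. The transcript shares of Gsx1 and Olig2, with 1 model each, are fixed at 100%. Without division by length, the summed Dlx ratio was 2.10, the difference of medians 2.01 and the ratio of Dlx6os1 to Dlx6 4.61, and Dlx5 over Dlx6os1 was -0.62 and Dlx2 over Dlx5 0.66. With protein-coding models only, an alternative chosen after seeing the data, the first 2 were 0.033 and 0.58, Dlx1 over Dlx2 was -2.07 and Dlx1 over Dlx5 -2.27. The difference of medians was 2.36 without the Gsx genes and 0.20 without Dlx1 and Dlx2. Dlx6os1 over Dlx6 was 2.46 with posterior mean TPM and 3.72 with both Dlx6os1 rows, the latter also added after seeing the data. Leaving out each replicate, Dlx2 over Dlx5 ranged from -0.25 to 0.028. The cause of these shifts was not tested beyond what each setting leaves out. The counts of 8 genes detected, 6 neighbouring pairs beyond the spread and 0 genes apart did not move by more than 1.5 times under the alternatives run. With 24 to 36 counts for Dlx6, depth limits its level and transcript shares. No paired analysis was possible because the labels give 1 group.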
